A study of Mus musculus with 6 samples.

Results

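The genes described here are 9 of the 54532 in the deposited table: the claudin genes Cldn3, Cldn4, Cldn6, Cldn7 and Cldn12, the occludin gene Ocln, the junctional adhesion molecule gene F11r, and the scaffold genes Tjp1 and Tjp3. They were named as epithelial tight junction genes, without the endothelial claudin gene Cldn5, and they were selected on this same comparison of knockout with control, whose results were known when the set was drawn up. Their differences between the groups are therefore given as a description, with no p-value, and the count of them that the fit over all genes called is set beside the share of all genes called without reading anything from it. RNA came from heart ventricles of mouse embryos at E12.5, in 3 control libraries and 3 libraries from embryos labelled LSD1-CKO, a conditional knockout of the histone demethylase LSD1, encoded by Kdm1a. The labels give neither the Cre line or cell type in which Kdm1a was deleted, nor the alleles the controls carried, nor whether a library came from 1 embryo or from pooled ventricles. No separate litters or embryos are named, so the tests on other genes measure the spread between these libraries, which among the controls may be technical. The knockout libraries differed in Xist and Ddx3y, as given below, so they did not all come from the same embryo or pool.

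Tight junctions seal the space between neighbouring cells of an epithelium or endothelium. Claudins span the membrane and form the sealing strands and pores, occludin and the adhesion molecule JAM-A (F11r) lie beside them, and the zonula occludens proteins encoded by Tjp1 and Tjp3 tie the strands to the actin cytoskeleton. Cldn3, Cldn4 and Cldn7 are typical of simple epithelia, whereas Cldn5 is the claudin of endothelium. In the embryonic heart the endocardium and vessels are endothelial and the epicardium is a mesothelium, and cardiomyocytes join mainly through the intercalated disc. LSD1 removes methyl groups from histone H3 lysine 4 and acts in corepressor complexes, among them those recruited by SNAI factors, which bind E-box sequences.

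The promoter sequences of the members are shown because most of these genes share a short motif that their choice did not use. Windows of 300 bases, 250 before and 50 from the start site, were taken from RefSeq on GRCm38.p6, the assembly that mm10 denotes, and all 9 genes matched, with 14 windows. The E-box CAGGTG, read as CACCTG on the other strand, was present in 7 of the 9 genes: Cldn3, Cldn4, Cldn6, Cldn7, Ocln, F11r and Tjp3. It was absent from the windows of Cldn12, whose knockout libraries were all above all controls, and of Tjp1, whose groups overlapped. The 7 include Cldn6 and Ocln, whose levels overlapped between the groups. Of 32851 mouse windows of the same length 20.2% held it, and of 27025 genes 22.6%. Of the 44 other tight junction genes with a window, 17 held it (38.6%), and Cldn5 did not. The windows of Cldn6, Ocln and Cldn12 are not printed, so the printed windows do not show how the motif and the group difference go together over the 9 genes. The next lines give 1 window each for 5 genes with the motif and for Tjp1 without it, 5′ to 3′ on the gene's own strand, with the E-box in capitals.
Cldn3, chr5:134985964-134986263, plus strand: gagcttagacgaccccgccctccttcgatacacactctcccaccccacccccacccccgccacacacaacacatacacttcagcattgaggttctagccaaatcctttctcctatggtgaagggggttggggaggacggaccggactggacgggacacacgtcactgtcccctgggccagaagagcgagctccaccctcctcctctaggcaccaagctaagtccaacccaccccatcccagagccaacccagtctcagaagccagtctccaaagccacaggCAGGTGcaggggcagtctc
Cldn4, chr5:134946885-134947184, minus strand: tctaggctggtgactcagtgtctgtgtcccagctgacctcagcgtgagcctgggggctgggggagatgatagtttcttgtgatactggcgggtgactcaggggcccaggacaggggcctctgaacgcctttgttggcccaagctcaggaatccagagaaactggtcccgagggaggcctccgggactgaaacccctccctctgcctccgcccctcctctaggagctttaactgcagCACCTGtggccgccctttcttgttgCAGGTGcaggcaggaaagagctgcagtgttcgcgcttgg
Cldn7, second window, chr11:69965171-69965470, plus strand: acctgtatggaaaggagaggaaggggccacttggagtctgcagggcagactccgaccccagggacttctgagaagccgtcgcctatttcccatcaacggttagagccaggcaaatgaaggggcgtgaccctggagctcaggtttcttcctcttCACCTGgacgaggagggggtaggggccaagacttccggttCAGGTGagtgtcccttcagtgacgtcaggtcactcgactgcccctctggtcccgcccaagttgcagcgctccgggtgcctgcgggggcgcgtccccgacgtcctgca
F11r, chr1:171437311-171437610, plus strand: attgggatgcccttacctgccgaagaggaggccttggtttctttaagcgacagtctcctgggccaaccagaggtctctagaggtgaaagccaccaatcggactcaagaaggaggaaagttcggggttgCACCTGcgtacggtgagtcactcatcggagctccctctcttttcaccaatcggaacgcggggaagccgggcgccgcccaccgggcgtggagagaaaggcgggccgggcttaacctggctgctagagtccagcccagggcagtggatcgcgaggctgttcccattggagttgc
Tjp3, second window, chr10:81291218-81291517, minus strand: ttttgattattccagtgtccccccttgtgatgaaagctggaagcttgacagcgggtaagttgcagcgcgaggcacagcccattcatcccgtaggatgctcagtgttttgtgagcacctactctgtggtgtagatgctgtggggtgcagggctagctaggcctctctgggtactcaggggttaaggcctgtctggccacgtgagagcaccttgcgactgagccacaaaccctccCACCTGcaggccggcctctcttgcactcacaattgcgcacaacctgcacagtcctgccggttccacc
Tjp1, chr7:65371195-65371494, minus strand: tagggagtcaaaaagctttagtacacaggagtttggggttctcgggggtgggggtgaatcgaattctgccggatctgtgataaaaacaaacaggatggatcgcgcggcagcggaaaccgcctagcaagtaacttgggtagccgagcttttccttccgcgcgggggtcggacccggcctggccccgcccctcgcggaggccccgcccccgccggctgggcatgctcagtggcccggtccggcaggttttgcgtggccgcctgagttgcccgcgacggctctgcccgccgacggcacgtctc

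Cldn3 carried a single E-box that begins 32 bases into the transcript. In Cldn4 one began 14 bases before the start site and another at base 12 of the transcript. The second Cldn7 window held one beginning 97 and one beginning 57 bases before the start, and the first Cldn7 window held none. Each Tjp3 window held 1, beginning 108 bases before the first start site and 17 bases before the second, and F11r held 1 beginning 122 bases before its start. In Cldn6 one began 93 bases before the start site and another at base 41 of the transcript. In Ocln one began at base 8 from the first start site, a site that the second, overlapping window holds too, and another 68 bases before the second start site. The GC box GGGCGG, or CCGCCC on the other strand, was in the windows of 8 of the 9 genes, all but Tjp3, against 38.2% of all genes. TATAAA, the TATA box, and AACCGGTT, a motif of GRHL factors, were searched on both strands and matched none of the 9 genes, against 15.7% and 0.174% of all genes. No match of 1 motif overlapped a match of another in these windows, and a match is only a match of letters. The windows also differed in CG dinucleotides, from 3 in the first Tjp3 window to 31 in that of Tjp1, with a median of 7 and quartiles of 3 and 20 over all windows. The Tjp1 window lies inside the span that the GENCODE annotation gives the gene, so a start site further upstream is annotated there and was not examined.

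Kdm1a stood at 29.99, 29.7 and 22.8 FPKM (fragments per kilobase of exon, scaled to library size) in control replicates 1, 2 and 3, and at 10.7, 11.8 and 11 FPKM in the knockout replicates. It fell to 0.405 of its control mean (log2 difference -1.22, SE 0.11, limma adjusted p = 0.00274), and all 3 knockout libraries were below all 3 controls. The 6 libraries held 1.79e+07 to 2.01e+07 reads, as recovered from the FPKM values, and 1 read over 1 kb of exon equalled 0.0515 to 0.0562 FPKM. Knockout replicate 3 had 0 FPKM of the Y-linked gene Ddx3y and 12.1 FPKM of Xist, whereas the other 5 libraries had 13 to 14.3 FPKM of Ddx3y. Knockout replicate 1 held 1.11 FPKM of Xist together with 14.3 FPKM of Ddx3y. The values of the junction genes without each library are given below where they move. The 14149 genes that averaged 0.5 FPKM or more were compared on log2(FPKM + 1), a scale that understates the change of low genes, and "called" means a limma adjusted p under 0.05 over those genes.

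Over all genes tested, 270 were called higher in knockout (1.91%) and 66 lower (0.466%). Of the 9 junction genes 6 were tested, and of these Cldn3, Cldn7, F11r and Tjp3 were called higher and 0 lower. That count was 2 without control replicate 1, knockout replicate 2 or knockout replicate 3. Since these genes were picked on this contrast, nothing is read from it. Cldn4, Cldn6 and Ocln were below the filter. Their expression is described from the deposited values and from recovered reads. The summed FPKM of the 9 genes was 47.2, 47.6 and 45.8 in the control libraries and 63.1, 64.7 and 67.1 in the knockout libraries, most of it from F11r and Tjp1.

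**Figure D1:**
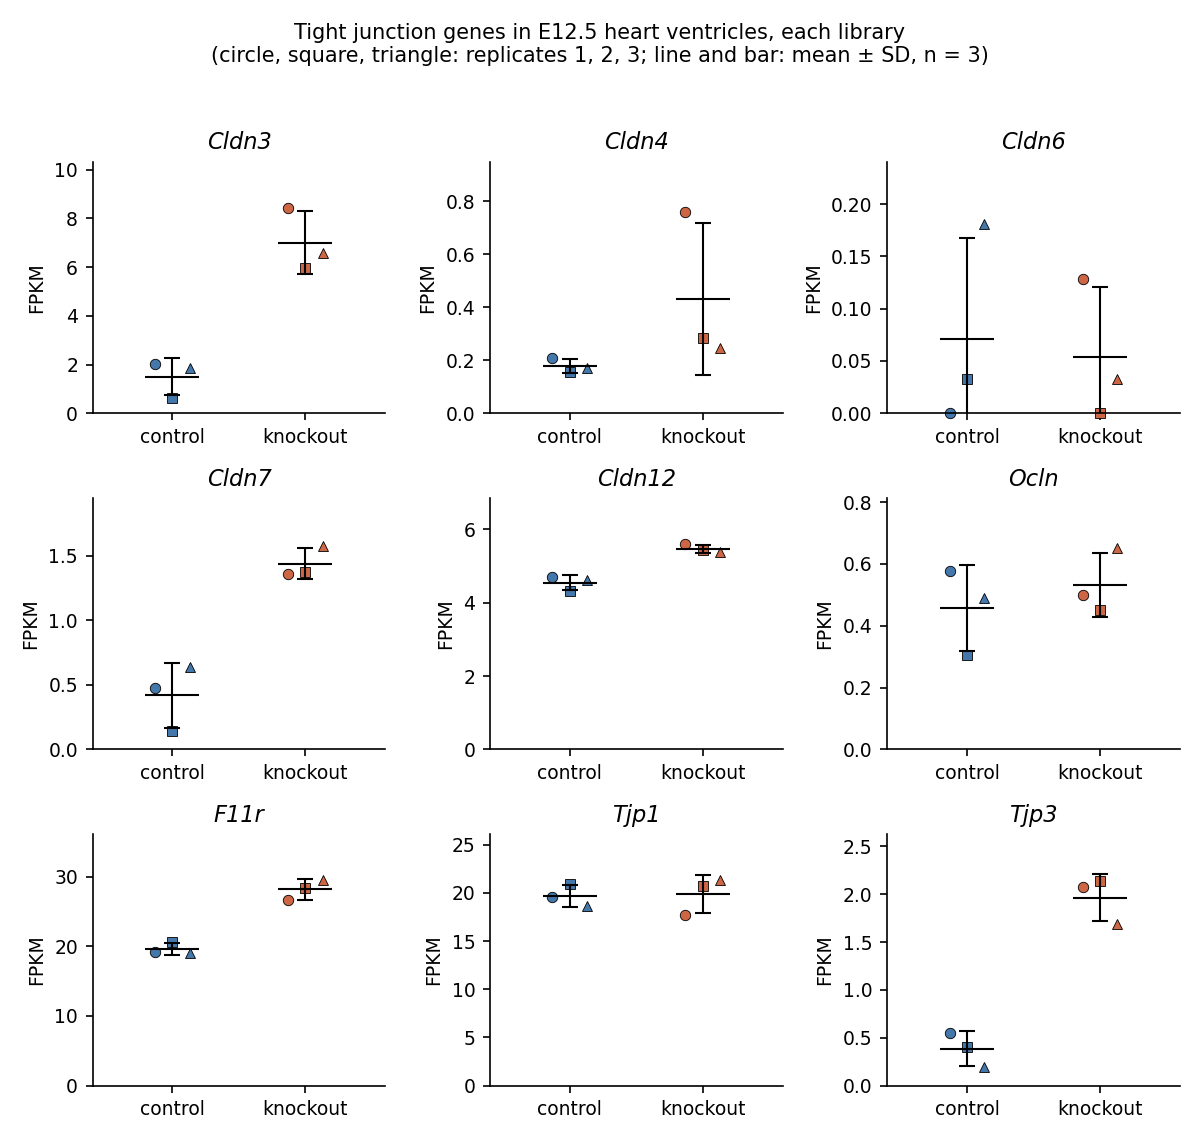
FPKM (vertical axes, each from 0) of the 9 junction genes in 3 control and 3 knockout libraries, with circles, squares and triangles for replicates 1, 2 and 3 and the mean ± SD. The groups do not overlap for Cldn3, Cldn4, Cldn7, Cldn12, F11r and Tjp3, and they overlap for Cldn6, Ocln and Tjp1.

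Cldn3, which encodes a sealing claudin of simple epithelia, stood at 2.02, 0.625 and 1.85 FPKM in the control libraries and at 8.44, 5.98 and 6.58 FPKM in the knockout libraries. Every knockout library was above every control library, and control replicate 2 was the lowest of the 6. The means were 1.5 ± 0.762 and 7.0 ± 1.28 FPKM (SD, n = 3 each). Their ratio was 4.67 and the log2 difference 1.72 (SE 0.24). The values rest on 47, 14 and 45 reads in control and 192, 146 and 148 reads in knockout. Leaving out any 1 library gave ratios from 3.61 to 5.65. The gene lies at chr5:134986214-134987472 on the plus strand (mm10) as a single exon, and 3.18% of its exon bases lie under Wbscr25 on the other strand. The library kit named in the labels does not mark strand, so reads of such overlaps cannot be told apart.

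Cldn4 encodes a claudin that sits 39280 bases from Cldn3, at chr5:134945119-134946934 on the minus strand. It was barely detected, at 0.209, 0.155 and 0.171 FPKM in control and 0.762, 0.284 and 0.247 FPKM in knockout. The groups did not overlap, and knockout replicate 1 stood apart from the other knockout libraries. The counts were 7, 5 and 6 reads in control and 25, 10 and 8 in knockout, where 3 reads, the floor used here, correspond to 0.0851 to 0.0928 FPKM. The means were 0.178 ± 0.0277 and 0.431 ± 0.287 FPKM (SD, n = 3 each). Their ratio was 2.42 with all libraries and 1.49 without knockout replicate 1.

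Cldn7, which in epithelia is found along the lateral membrane as well as in the junction, stood at 0.473, 0.144 and 0.638 FPKM in control and at 1.36, 1.38 and 1.58 FPKM in knockout. The 3 knockout libraries lay close together and above each control library. The means were 0.418 ± 0.251 and 1.44 ± 0.122 FPKM (SD, n = 3 each). They stood in a ratio of 3.44 with a log2 difference of 0.80 (SE 0.14), from 46 reads in all control libraries and 155 in all knockout libraries. The ratio was 2.59 without control replicate 2 and 4.67 without control replicate 3. It lies at chr11:69964779-69967885 on the plus strand.

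Cldn12, a claudin without the usual binding motif for PDZ scaffolds at its end, was the most abundant of the 5 claudins in control, at 4.72, 4.33 and 4.61 FPKM, and stood at 5.60, 5.44 and 5.39 FPKM in knockout. The groups did not overlap, but the difference was small, with means of 4.55 ± 0.197 and 5.48 ± 0.111 FPKM (SD, n = 3 each) and a ratio of 1.20. The log2 difference was 0.22 (SE 0.07), from 1070 and 1281 reads. It lies at chr5:5489537-5514958 on the minus strand, far from the Cldn3 and Cldn4 pair on the same chromosome.

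Cldn6, a claudin of early embryonic epithelia, was at the limit of detection. It stood at 0, 0.0327 and 0.181 FPKM in control and at 0.129, 0 and 0.0325 FPKM in knockout. These are 7 reads over the control libraries and 5 over the knockout libraries, and both group means lie under the 3-read floor of 0.0898 to 0.0980 FPKM, so no ratio is given. The gene lies at chr17:23679249-23682446 on the plus strand. The claudins are a family of related genes, and how the counting treated reads that match more than 1 of them is not given in the sources used here.

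Within the claudin family Cldn3 and Cldn5 had the largest differences in mean share between the groups, while the summed level overlapped. The shares of Cldn2, Cldn4, Cldn7, Cldn12 and Cldn13 did not overlap between the groups either, those of Cldn2, Cldn4 and Cldn13 resting on few reads. The FPKM of the 23 genes named Cldn with a number summed to 30.5 ± 3.29 in control and 31.3 ± 2.08 in knockout (SD, n = 3 each), and 5 of the 23 were at 0 in every library. Cldn3 made up 7.02, 2.20 and 5.40% of that sum in control and 25.4, 20.6 and 20.7% in knockout. By mean share it moved from rank 5 to rank 1. In knockout replicate 3, however, Cldn5 (22.3%) and Cldn15 (21.7%) had larger shares than Cldn3 (20.7%). Cldn5 made up 38.4, 47.4 and 38.6% in control and 22.2, 19.4 and 22.3% in knockout. Cldn12 held 15.0% ± 1.48 and 17.5% ± 1.02 (SD, n = 3 each), and Cldn7 1.34% ± 0.726 and 4.61% ± 0.446. Shares of 1 sum are tied to each other, so the shares of Cldn3 and Cldn5 alone are not separate observations. In FPKM, which is scaled to library size and not to the claudin sum, Cldn3 averaged 1.5 in control and 7.0 in knockout. Cldn5 averaged 12.6 FPKM in control and 6.69 FPKM in knockout. In bulk tissue fewer cells of a type and less RNA per cell cannot be told apart. The other endothelial markers listed below each had a higher mean in knockout, and the share of endothelial cells was not tested.

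**Figure D2:**
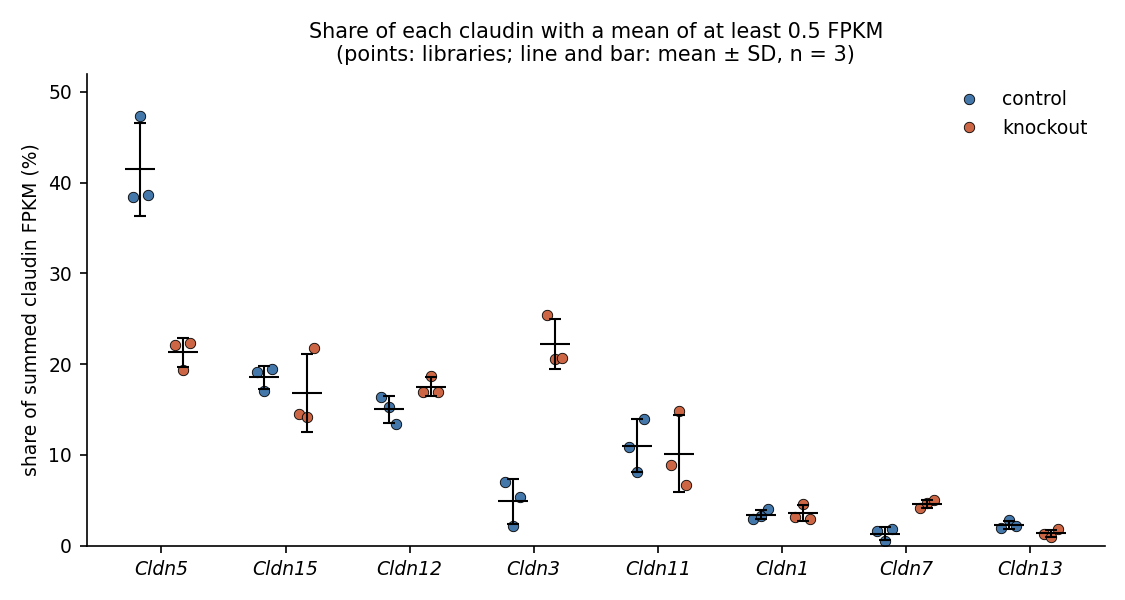
Share of the summed claudin FPKM (vertical axis, percent) taken by each of the 8 claudins with a mean of at least 0.5 FPKM, per library, with the mean ± SD of each group. Cldn5 is between 38.4 and 47.4% in control and between 19.4 and 22.3% in knockout, and Cldn3 is at 2.20 to 7.02% and 20.6 to 25.4%.

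Ocln, which encodes occludin, a membrane protein that lies along the claudin strands, was low in both groups. It stood at 0.577, 0.306 and 0.491 FPKM in control and at 0.498, 0.452 and 0.650 FPKM in knockout, so the groups overlapped. The means of 0.458 ± 0.139 and 0.533 ± 0.104 FPKM (SD, n = 3 each) came from 108 and 124 reads and gave a ratio of 1.16, which moved between 0.998 and 1.34 as single libraries were left out. Its mean over the 6 libraries was 0.496 FPKM, just under the filter, and Cldn7 at 0.929 FPKM was the lowest of the 9 genes just above it. Ocln lies at chr13:100496507-100552718 on the minus strand.

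F11r encodes JAM-A, an immunoglobulin-like adhesion molecule of tight junctions that endothelial cells and platelets also carry. It stood at 19.1, 20.7 and 19.0 FPKM in control and at 26.6, 28.4 and 29.5 FPKM in knockout. The 3 libraries of each group were close together and the groups were well apart. The means were 19.6 ± 0.916 and 28.2 ± 1.48 FPKM (SD, n = 3 each), from 2897 and 4151 reads. This is 1.44 times the control level, a log2 difference of 0.50 (SE 0.07). The ratio stayed between 1.40 and 1.48 when any 1 library was left out. F11r lies at chr1:171437535-171464603 on the plus strand, in 9 exon blocks.

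Tjp3, which encodes ZO-3, the zonula occludens scaffold found mainly in epithelia, stood at 0.554, 0.409 and 0.195 FPKM in control and at 2.07, 2.14 and 1.69 FPKM in knockout. Each knockout library was above each control library. The means were 0.386 ± 0.181 and 1.97 ± 0.242 FPKM (SD, n = 3 each), which is the highest ratio of the 9 genes, 5.09, with a log2 difference of 1.10 (SE 0.13). The values rest on 38, 27 and 14 reads in control and 139, 154 and 112 in knockout, and the ratio was between 4.08 and 6.51 with any 1 library left out. The gene lies at chr10:81273207-81291581 on the minus strand, with 1.08% of its exon bases under Apba3 on the other strand.

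Tjp1, which encodes the broadly expressed scaffold ZO-1, stood at 19.6, 20.9 and 18.6 FPKM in control and at 17.7, 20.7 and 21.4 FPKM in knockout. The groups overlapped, and the means of 19.7 ± 1.14 and 19.9 ± 1.98 FPKM (SD, n = 3 each) gave a ratio of 1.01 from 8533 and 8616 reads. Its log2 difference was 0.01 (SE 0.09) and lay between -0.04 and 0.10 over the alternative analyses, so it had no stable direction. Tjp1 lies at chr7:65296165-65527781 on the minus strand.

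In order of control FPKM, which is scaled by exon length, Tjp1 and F11r came first and overlapped, and Cldn12 followed apart from both. Cldn3, at 0.625 to 2.02 FPKM, overlapped Cldn7, at 0.144 to 0.638 FPKM, but not Ocln or Tjp3. Ocln, Cldn7 and Tjp3 overlapped each other, and Cldn4 and Cldn6 had the lowest means. The Cldn4 values overlapped those of Cldn7 and Tjp3, and the Cldn6 values those of Cldn7 and Cldn4. In knockout the F11r values were all above those of Tjp1. Those of Cldn3 were all above those of Cldn12, at 5.98 FPKM and over against 5.60 FPKM and under. Tjp3 and Cldn7 stood next, both apart from Ocln.

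The rest of the tight junction genes, drawn up by textbook function, mostly did not pass the test. Of 61 symbols listed, 60 of them separate genes in the table, 43 were tested, and 1 was called higher, 1 lower. At an unadjusted p under 0.05 there were 7 (16.3%), against 2274 of all genes tested (16.1%). Their median log2 difference was -0.00, beside -0.01 over all genes tested. Over all tested genes every knockout library was above every control library in 11% and below in 10.4%. Among the 6 tested junction genes it was above in 5 and below in 0, a count that the choice of genes bears on and from which nothing is read.

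Among 29 plaque and polarity genes tested, which link the membrane proteins to the cytoskeleton, 3 had an unadjusted p under 0.05 and the median log2 difference was 0.02.

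Cldn5, the endothelial claudin, was the 1 that fell, from 11.1, 13.5 and 13.2 FPKM to 7.35, 5.64 and 7.08 FPKM. The groups did not overlap, and the log2 difference was -0.82 (SE 0.11, limma adjusted p = 0.0121). Leaving out any 1 of the 6 libraries kept this call, with limma adjusted p from 0.0255 to 0.0471. The other tested claudins, Cldn1, Cldn11, Cldn13 and Cldn15, had log2 differences between -0.25 and 0.04 and overlapping groups. Of 9 other membrane proteins tested none passed the threshold with limma, and 3 had an unadjusted p under 0.05. The smallest belonged to Marveld3, an occludin relative, at 0.231, 0.240 and 0.126 FPKM in control and 0.910, 1.10 and 0.512 FPKM in knockout (log2 difference 0.61, SE 0.14, limma adjusted p = 0.0882). Next came Lsr, which encodes angulin-1 of tricellular junctions, at 2.54, 2.69 and 3.27 FPKM against 4.0, 3.87 and 3.89 FPKM (log2 difference 0.36, SE 0.09, limma adjusted p = 0.0930), with 44.7% of its exon bases under other genes. Marveld3 was called by voom on recovered reads (adjusted p = 0.0209), and Lsr after rescaling to TPM (limma adjusted p = 0.0439) and without control replicate 3 (limma adjusted p = 0.0365).

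**Figure D3:**
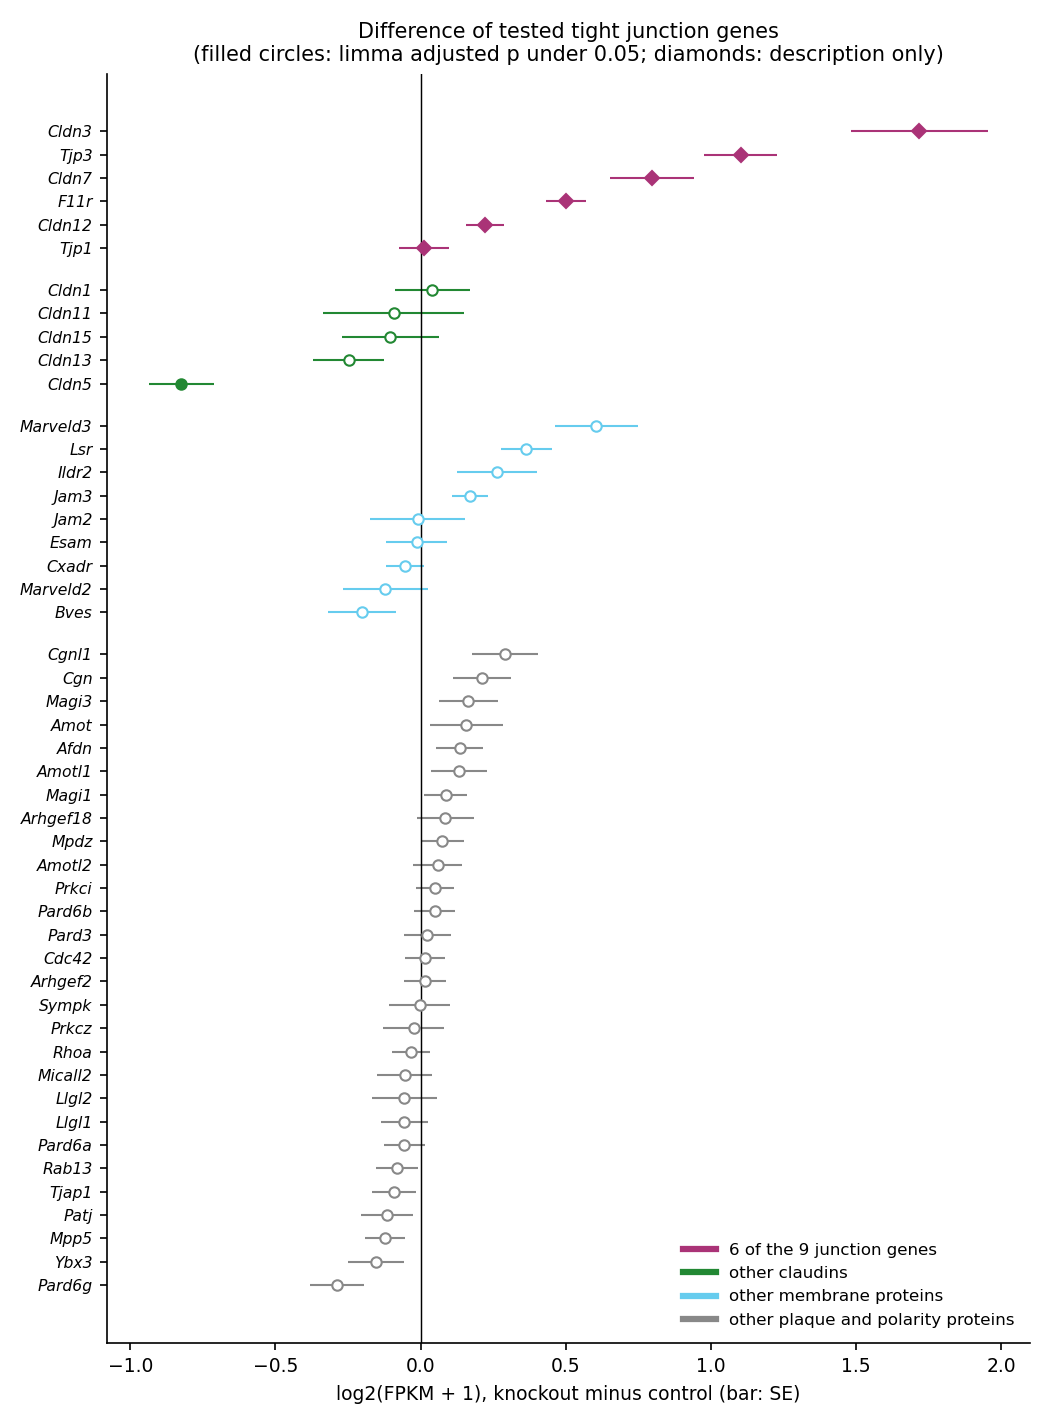
Difference in log2(FPKM + 1), knockout minus control (horizontal axis, bar: SE), of tight junction genes in 4 groups, with diamonds for the genes given as a description and, among the others, filled circles where the limma adjusted p over all genes was under 0.05. Cldn3 (1.72), Tjp3 (1.10), Cldn7 (0.80) and F11r (0.50) belong to the genes picked on this contrast, so nothing is read from their place. The other tight junction genes centre on -0.00, with Marveld3 at 0.61 and Cldn5 at -0.82.

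The genes beside the 9 on the chromosome were compared because position played no part in choosing them. The 2 nearest protein-coding genes on each side gave 32 separate genes, of which 26 were tested. With limma 0 were called and 3 had an unadjusted p under 0.05, and 0 were called by any other fit run, voom included. Their median log2 difference was -0.09. Around Cldn3, Mettl27 had a log2 difference of -0.02 and Abhd11 one of -0.13. Stx1a, a syntaxin gene that begins 36010 bases beyond Cldn3, stood at 4.86, 4.13 and 3.73 FPKM in control and 3.28, 2.45 and 2.77 FPKM in knockout (log2 difference -0.45, SE 0.11, limma adjusted p = 0.101). It and the other neighbours of Cldn3 are named after their values were seen.

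**Figure D4:**
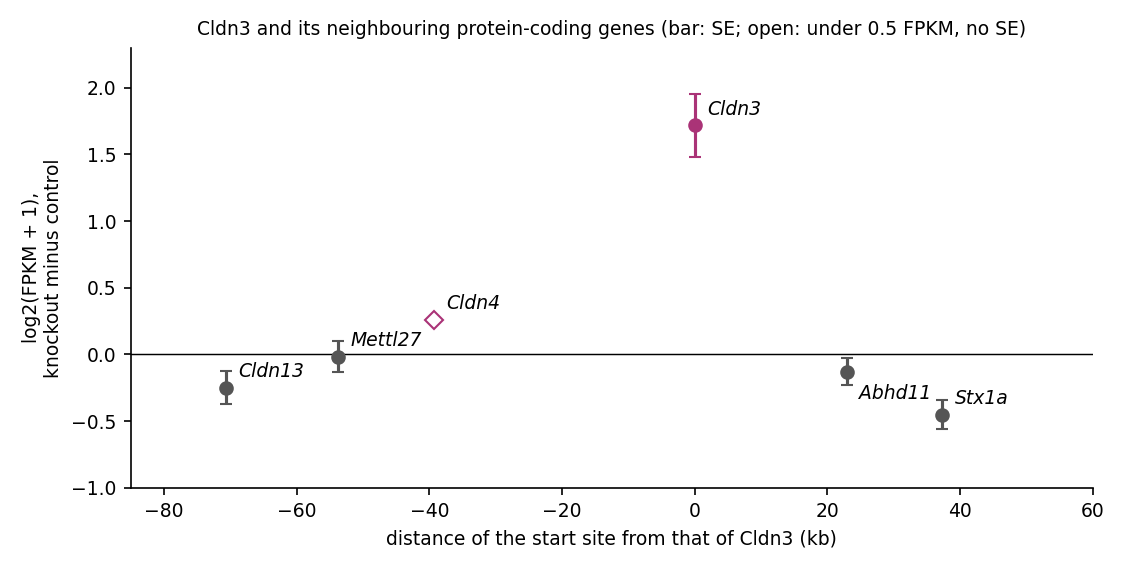
Difference in log2(FPKM + 1), knockout minus control (vertical axis, bar: SE), of Cldn3 and its neighbouring protein-coding genes against the distance of each start site from that of Cldn3 in kb. Cldn3 stands at 1.72 and the tested neighbours between -0.45 and -0.02, and the open diamond is Cldn4, which was under 0.5 FPKM and has no SE.

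Markers of the cell types that the tissue could hold were read from the same libraries. The 28 epithelial markers summed to 138 to 196 FPKM in control and 158 to 182 FPKM in knockout, most of it from Krt19 (64.5 ± 19.4 and 58.5 ± 2.77 FPKM, SD, n = 3 each), Krt18 (27.3 ± 6.22 and 29.9 ± 3.77) and Spint2 (24.7 ± 3.27 and 24.6 ± 0.511). Simple keratins are also made by mesothelium. Of 11 tested, 2 were called higher and 0 lower, beside 1.91% and 0.466% of all genes tested. The keratin gene Krt8 rose from 13.1 ± 1.10 to 22.8 ± 3.94 FPKM (log2 difference 0.74, SE 0.12, limma adjusted p = 0.0241). The epithelial adhesion gene Epcam rose from 0.188 ± 0.174 to 1.01 ± 0.210 FPKM (0.76, SE 0.15, limma adjusted p = 0.0423). For both, every knockout library was above every control library, against 11% of all genes tested. With single libraries left out in turn, Krt8 kept its call in 3 of the 6 fits and Epcam in 0. Cdh1, the classical cadherin of epithelia, had 13 reads over the control libraries and 11 over the knockout libraries, Ovol1 was at 0 in every library, and the remaining 9 tested markers did not pass the threshold. Among those 9, Cdh3, a cadherin gene, at 15.3 ± 0.424 and 13.1 ± 0.504 FPKM (log2 difference -0.21, SE 0.06, limma adjusted p = 0.143), and Lad1, at 1.15 ± 0.152 and 0.861 ± 0.210 FPKM (-0.21, SE 0.12, limma adjusted p = 0.423), had every knockout library below every control library, against 10.4% of all genes tested. The list's median log2 difference was -0.07, so it held differences in both directions, and Cdh3 and Lad1 are named after their values were seen.

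The 14 epicardial markers summed to 262 to 323 FPKM in control and 291 to 321 FPKM in knockout, the groups overlapped for all 12 tested, and 0 were called by limma (0 also at an unadjusted p under 0.05). The highest were Upk3b (86.0 ± 11.9 and 88.3 ± 4.23 FPKM), Aldh1a2 (45.2 ± 5.08 and 45.7 ± 5.62) and Tcf21 (38.9 ± 2.92 and 39.6 ± 5.95). Of 15 foregut, lung and liver markers 4 were at 0 in every library, Nkx2-1, Shh, Cdx2 and Foxa1. The whole list summed to 2.95 to 5.72 FPKM in control and 5.52 to 6.86 FPKM in knockout, led by Apoa2, Ttr and Afp, with 2 tested and 0 called by limma (0 at an unadjusted p under 0.05). Of 9 markers of this list above 0 but under the filter, 2 had every knockout library above every control library and 1 had every one below. The shares over all 11807 genes above 0 but under the filter were 5.54% and 3.02%. Sox2 had 12 reads over the control libraries and 39 over the knockout libraries and Foxa2 had 0 and 9, the 2 that were above. The 12 endothelial markers, Cldn5 among them, summed to 241 to 337 FPKM in control and 295 to 365 FPKM in knockout. Of these 12 only Cldn5 was called, each of the others had a higher mean in knockout, and the median log2 difference was 0.24. At an unadjusted p under 0.05 there were 5 of the 12 (41.7%, against 16.1% of all genes tested): Cldn5, which was lower, and Npr3, Plvap, Emcn and Eng, which had higher means in knockout. Every knockout library was above every control library for Npr3, at 14.6 ± 2.79 and 21.2 ± 2.42 FPKM (log2 difference 0.52, SE 0.14, limma adjusted p = 0.114), and for Emcn, at 12.1 ± 1.88 and 14.5 ± 0.397 FPKM (0.26, SE 0.10, limma adjusted p = 0.270). Npr3 and Emcn were named after their values were seen. Plvap, Eng and Tie1 led the list, each with a higher mean in knockout and overlapping groups. The cardiomyocyte markers, led by Actc1, Myl2 and Myl7, summed to between 15973 and 20468 FPKM in the 6 libraries, with 14 tested and 0 called (1 at an unadjusted p under 0.05). The part of any cell type in the values of the junction genes was not tested.

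**Figure D5:**
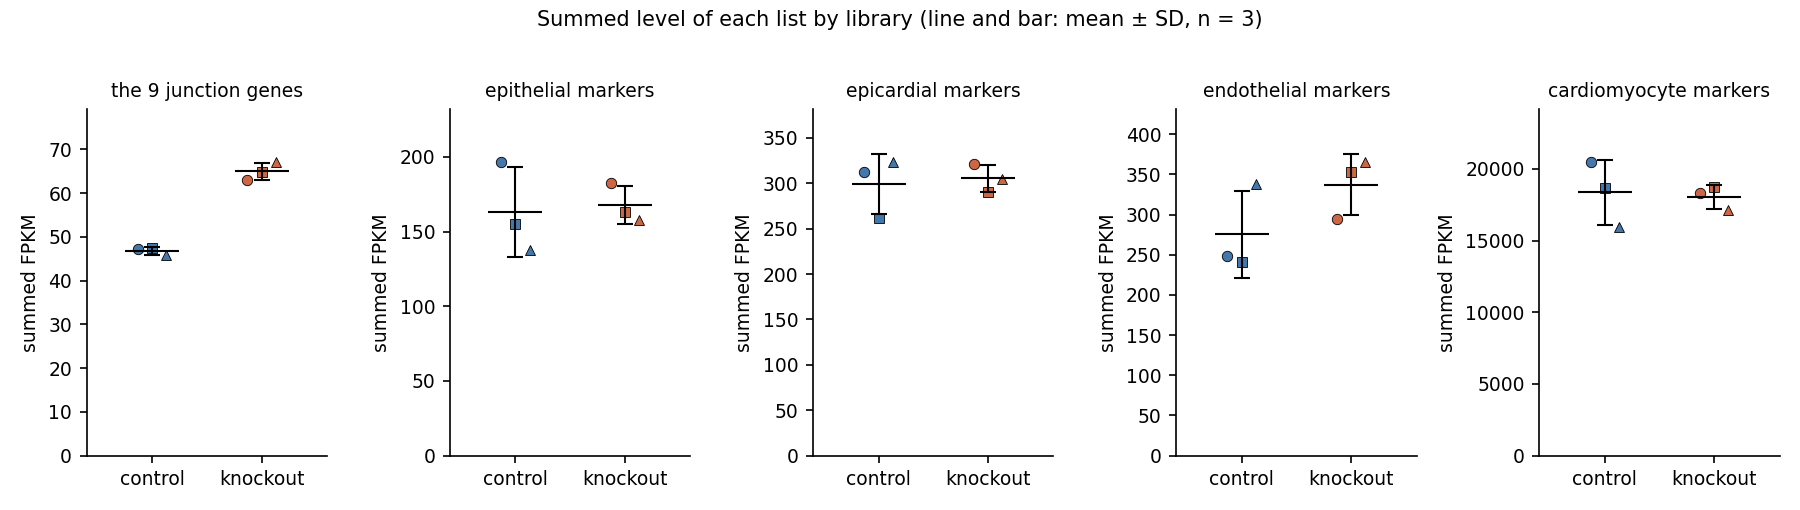
Summed FPKM per library (vertical axes, each from 0) of the 9 junction genes and of the epithelial, epicardial, endothelial and cardiomyocyte marker lists, with the mean ± SD of 3 libraries a group. The junction genes stand at 45.8 to 47.6 in control and 63.1 to 67.1 in knockout without overlap, and each marker sum overlaps between the groups.

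Other genes whose libraries followed the same pattern were found by the mean absolute difference from a member of log2(FPKM + 1), each gene centred on its own mean over the 6 libraries. Guca1a (0.189), Tceal6 (0.236) and Mylpf (0.238) were nearest to Cldn3. Irf5 (0.0806), Hspa2 (0.0840) and Plcg2 (0.0924) were nearest to Tjp3, and Gm48667 (0.0770), Nfe2l3 (0.0843) and Klf14 (0.0891) to Cldn7. Sfmbt2 (0.0365), Prune2 (0.0374) and Unc119 (0.0386) were nearest to F11r. No other junction gene was among the 3 nearest of any of these 4. For Cldn12 the nearest was St3gal5 (0.00872) and for Tjp1 Gtpbp2 (0.0119), both in sets where the range between libraries was small. The measure is a likeness over 6 libraries in 2 groups and so follows the group difference.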

How the data were processed

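RNA-seq of 6 ventricle libraries was used, 3 control and 3 knockout, grouped by the descriptions in the labels. Per the submitters' processing notes, reads were handled with HISAT2 2.0.5 and featureCounts 1.5.0-p3, besides CASAVA and fastp, on mm10. How reads were assigned and with which annotation is not stated there. The deposited values are FPKM, made by the authors, with no counts. Symbols, coordinates and exon lengths came from GENCODE M21 by Ensembl ID (54495 of 54532 matched). Dividing FPKM by the worth of 1 read recovered whole reads (within 0.02) for 98.1% to 98.5% of genes under 30 reads, and these recovered reads served for floors of 3 reads, which cover counting error only, and for voom. The main test was limma 3.58.1 (R 4.3.3) on log2(FPKM + 1), a mean of 0.5 FPKM or more, mean-variance trend, two-sided, genotype only, Benjamini-Hochberg over all genes, checked on simulated data. Alternatives were other pseudocounts and filters, TPM, quantile normalization, rescaling without haemoglobin and mitochondrial genes, voom, the replicate block and leaving out each library.

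The members and lists were chosen with earlier results of these data known. Genes named are the 9 members, Kdm1a, Cldn5, called genes of each junction list or, with none called, the 2 with the lowest p, the 3 highest of each marker list, and the 3 nearest genes in pattern. The values of 1 gene of the plaque and polarity list, which is counted but not plotted, are not reported here. Python 3.11.15 was used for tables (pandas 2.3.3, numpy 2.4.6) and plots (matplotlib 3.10.9).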

Additional observations from a re-analysis of the deposited data

How the results depend on the processing

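Counts of calls moved with the filter, the test and the libraries used. Without a filter on low values 110 genes were called higher and 12 lower, with 0 other tight junction genes in either direction, while 25956 genes were tested. Rescaling to TPM gave 40 lower and 2 other tight junction genes higher, and voom on recovered reads gave 547 higher and 2 other tight junction genes higher. Leaving out 1 library gave 109 to 281 genes higher, 23 to 113 lower, 0 to 1 other tight junction genes higher and 1 to 2 lower, the lowest total without knockout replicate 2 and the highest without control replicate 3. In that last fit the higher gene was Lsr and the lower ones Cldn5 and Bves. With the replicate block 284 genes were called, 233 of them among the 336 of the unblocked fit, and 0 other tight junction genes were higher. Libraries with the same number correlated in their deviations at -0.00, 0.14 and 0.16, and those with different numbers at -0.19 to 0.08. These values do not settle whether the numbers are pairs. The labels state no pairing, so the main fit took none and the replicate block is given as an alternative. Neighbouring genes gave 0 calls in all 15 alternatives. Cldn5 lost its call without the filter (limma adjusted p = 0.0548), as did Krt8 (0.0846) and Epcam (0.0968).

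Between 2 and 4 of the 9 junction genes were called in each alternative, a count from which nothing is read since the genes were picked on this contrast. With single libraries left out in turn, Cldn3 and Tjp3 each kept their call in 6 of the 6 fits, F11r in 3 and Cldn7 in 1. Without the filter on low values Cldn3 and Cldn7 lost their calls, and Cldn7 also lost its call with a pseudocount of 0.1. The log2 differences of Tjp3, Cldn3, F11r and Cldn7 ranged from 1.0 to 2.51, from 1.43 to 2.39, from 0.47 to 0.60 and from 0.65 to 2.0, respectively, the highest of Cldn3, Cldn7 and Tjp3 with a smaller pseudocount or voom, which compress low genes less. Cldn12 ranged from 0.19 to 0.33. Depth limits Cldn4 and Cldn6 most, at 18 and 7 reads over the control libraries.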

Other observations

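Genes that encode repressors of epithelial genes, several of which bind the E-box shown for the junction genes, were present in all libraries. Twist1 stood at 19.5 ± 4.09 FPKM in control and 16.0 ± 0.981 FPKM in knockout (SD, n = 3 each), Snai2 at 8.44 ± 1.19 and 7.93 ± 0.725, Snai1 at 7.75 ± 1.65 and 7.79 ± 0.179, and Zeb1 at 7.30 ± 0.654 and 7.16 ± 0.405. Zeb2 was at 2.12 ± 0.102 and 2.47 ± 0.135 FPKM, without overlap of the groups, and Snai3 at 1.16 ± 0.170 and 0.656 ± 0.340 FPKM. Of 7 such genes 6 were tested, 0 were called by limma and 1 had an unadjusted p under 0.05. Their sum was 44.5 to 49.5 FPKM in control and 41.9 to 42.5 FPKM in knockout, and it was not tested. Twist1 was the largest part of that sum and stood at 24.2 FPKM in control replicate 3. Its groups overlapped, as did those of every other gene of the 7 except Zeb2, whose knockout values were higher.

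Of 16 epithelial markers above 0 but under the filter, 4 had every knockout library above every control library and 0 had every one below. Over all 11807 genes under the filter these shares were 5.54% and 3.02%. Grhl2, which encodes a transcription factor of epithelia, had 23 reads over the control libraries and 59 over the knockout libraries, Esrp2, an epithelial splicing regulator, 63 and 127, the protease gene St14 70 and 146, and Spint1, which encodes an inhibitor of that protease, 6 and 32. Grhl1 and Grhl3, which were tested, stood at 0.579 and 2.60 FPKM in control and at 0.507 and 2.29 FPKM in knockout, with overlapping groups. The other 12 of the 16 overlapped, among them Cdh1 and Elf3, whose means were lower in knockout. Grhl2, Esrp2, St14 and Spint1 were picked after their values were seen, and they were not tested.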
